A study of Mus musculus with 4 samples.

Results

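The genes described here encode the sarcoplasmic reticulum calcium cycle of heart muscle: release (Ryr2, Trdn, Casq2, Hrc, Jph2), reuptake (Atp2a2, Pln, Sln), exchange with the outside of the cell (Slc8a1) and an enzyme of the reticulum membrane (Dhrs7c). They were chosen by symbol, and all 10 were found among the 14936 genes of the deposited table. Poly(A) RNA was sequenced from the hearts of 4 mouse embryos at E18.5 on a C57BL/6 background. All 4 were homozygous for a floxed allele of Adar1, the RNA-editing enzyme gene listed as Adar. Embryos 47 and 50, the controls, were Nkx2.5-Cre (WT/WT), and embryos 51 and 54, the mutants, were Nkx2.5-Cre (Cre/WT). The comparison asks how heart RNA differs between floxed embryos with and without this Cre, which is driven from an early heart gene. The Cre allele itself was carried by the mutants alone, so its effects and those of recombining Adar1 cannot be told apart.

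In a heart muscle cell, calcium that enters through surface channels opens the ryanodine receptor, and the sarcoplasmic reticulum then releases the larger amount of calcium that makes the sarcomeres contract. Relaxation follows when the SERCA pump returns calcium to the reticulum and the sodium-calcium exchanger carries the rest out of the cell. Phospholamban and sarcolipin are small membrane proteins that restrain the pump. Calsequestrin and the histidine-rich calcium-binding protein hold calcium inside the store, triadin ties calsequestrin to the release channel, and junctophilin holds the reticulum close to the surface membrane. Before birth this system is still being assembled, and its transcripts increase in the late embryonic heart.

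Each library held from 7457103 to 8998872 reads of listed genes. CPM are reads scaled by the authors to an effective library size, and a single read equals 0.109 to 0.138 CPM. Adar stood at 30.2 and 35.7 CPM in controls 47 and 50 and at 194.9 and 213.3 CPM in mutants 51 and 54, so it was higher in the libraries labelled mutant. Which Adar exons are floxed is not in the labels, so these gene-level reads do not check the deletion. The genotype entry of the mutants names wildtype and KO together, and the groups were read from the sample titles. All directions compare libraries labelled mutant with libraries labelled control. Nkx2-5, the gene the Cre is named for, fell by 0.86 on the log2 scale (SE 0.16, limma adjusted p = 0.00802). Markers of cardiomyocytes were abundant in all 4 libraries, as heart tissue requires, with summed levels of 56242 and 42510 CPM over 12 genes in controls 47 and 50. The same sum was 22912 CPM in mutant 51 and 35438 CPM in mutant 54. Of those 12 genes, 4 fell, where 14.2% of all genes tested fell. Their log2 fold changes ran from -1.39 for Myl3 to -0.075 for Ldb3, and the groups overlapped for 3 of them. All 12 had a higher value in mutant 54 than in mutant 51, which was so for 52.4% of all genes tested. The summed level of 6 erythroid markers was 5716 and 13161 CPM in the controls, 675 CPM in mutant 51 and 5143 CPM in mutant 54, so these libraries also differed in blood RNA, and its part in the results was not tested.

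Transcripts of the calcium store proteins, triadin, both small pump inhibitors and Dhrs7c were lower in the mutants, while the release channel, the pump, junctophilin and the exchanger did not pass the test. Of the 10 genes 6 fell at a limma adjusted p under 0.05, namely Casq2, Trdn, Hrc, Pln, Sln and Dhrs7c, where 14.2% of all 14869 genes tested fell. With limma 0 of the 10 rose, 0 were higher even at an unadjusted p under 0.05, and edgeR and DESeq2 called 0 higher as well, where limma called 17.8% of all genes higher. Both mutants lay below both controls for 8 of the 10, which was so for 36.3% of all genes. The median log2 fold change was -0.96 over the 10 genes and -0.0058 over all genes tested. All fold changes come from limma on log2(CPM + 1), as mutant less control, a scale that understates changes at low values. The 10 genes together accounted for 0.897% and 0.866% of control reads, against 0.418% of the reads of mutant 51 and 0.671% of those of mutant 54. Mutant 51 was below mutant 54 for all 10 genes, whereas 52.4% of all genes tested were higher in mutant 54 than in mutant 51.

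**Figure D1:**
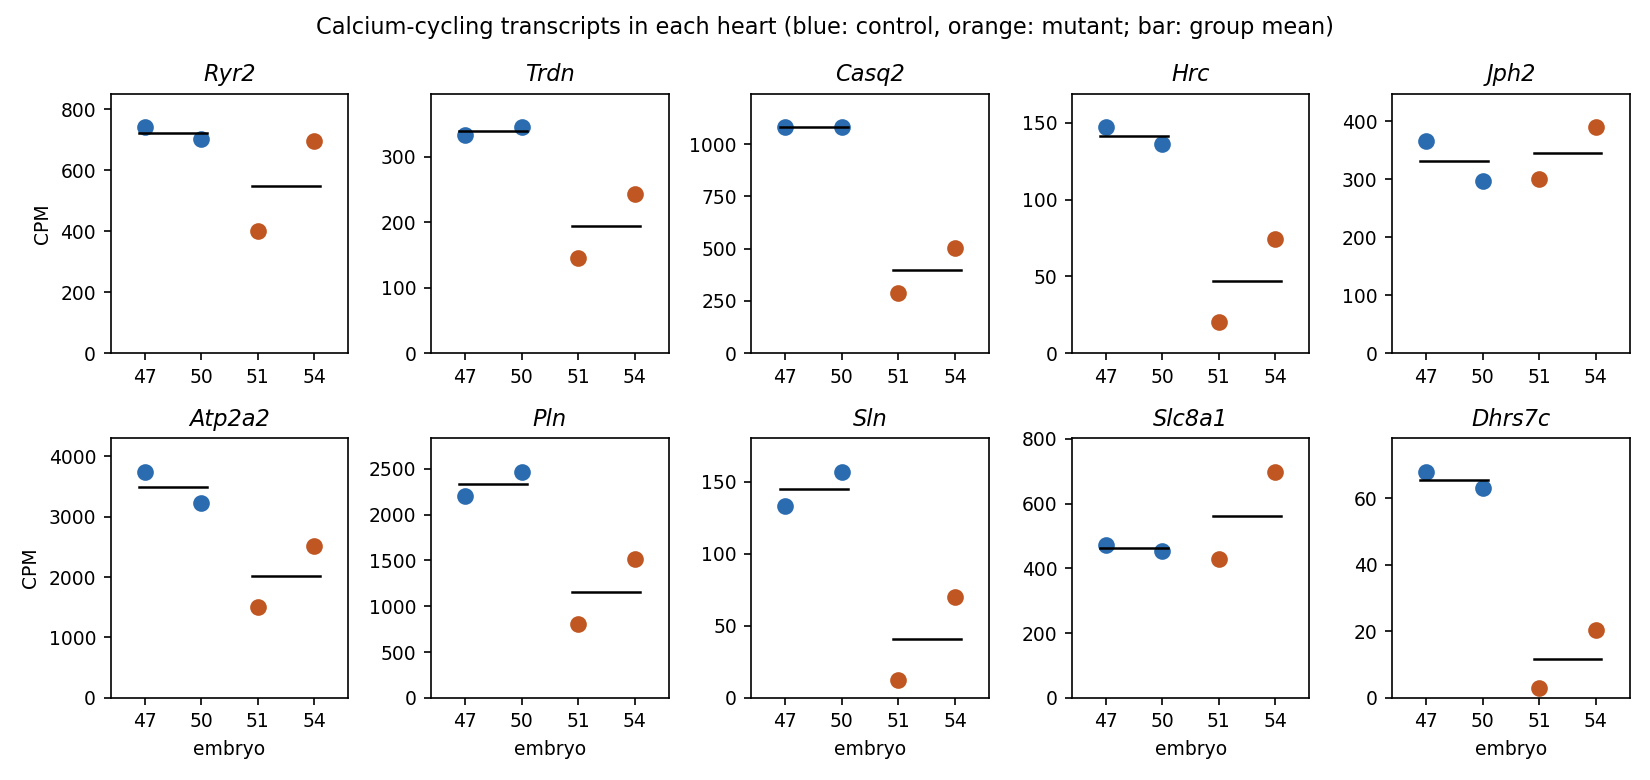
CPM (vertical axes, each from 0) of the 10 calcium-cycling genes in control embryos 47 and 50 (blue) and mutant embryos 51 and 54 (orange), with a bar at each group mean. Both mutants lie below both controls for 8 genes, and the groups overlap for Jph2 and Slc8a1.

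Among the genes of calcium release, Casq2 showed the clearest fall. Casq2 encodes cardiac calsequestrin, the main calcium-binding protein inside the store (ENSMUSG00000027861, chromosome 3, 102086415 to 102146514 on GRCm38, by GENCODE M21, as for all positions of genes). It stood at 1079.5 and 1079.2 CPM in controls 47 and 50, 288 CPM in mutant 51 and 505 CPM in mutant 54. The controls were nearly equal and both mutants were far below them, at 26.7% and 46.8% of the control mean. The log2 fold change of Casq2 was -1.50 (SE 0.26, limma adjusted p = 0.00702).

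Hrc (ENSMUSG00000038239, chromosome 7, 45335290 to 45338974), which encodes the histidine-rich calcium-binding protein of the store, was at 147 and 136 CPM in the controls, 20.6 CPM in mutant 51 and 74.2 CPM in mutant 54. The groups did not overlap, and the mutants differed from each other by a factor of 3.61. Hrc fell by 1.82 on the log2 scale (SE 0.49, limma adjusted p = 0.0297), a call that ended with DESeq2 (DESeq2 adjusted p = 0.167). Trdn (ENSMUSG00000019787, chromosome 10, 33080554 to 33476709), the gene of triadin, stood at 334 and 345 CPM in the controls, 145 CPM in mutant 51 and 243 CPM in mutant 54. Its groups did not overlap either, and it fell by 0.85 on the log2 scale (SE 0.23, limma adjusted p = 0.0301).

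The release channel itself and the membrane tether gave no call. Ryr2 (ENSMUSG00000021313, chromosome 13, 11553102 to 12106945), which encodes the cardiac ryanodine receptor, was at 741 and 703 CPM in the controls, 401 CPM in mutant 51 and 695 CPM in mutant 54. Mutant 54 was thus at 96.3% of the control mean and mutant 51 at 55.6%. The log2 fold change of Ryr2 was -0.45 (95% interval -1.06 to 0.16, limma adjusted p = 0.215). Without mutant 54 it was -0.84, and without mutant 51 it was -0.053. Jph2 (ENSMUSG00000017817, chromosome 2, 163336242 to 163397993), the gene of junctophilin 2, stood at 367 and 297 CPM in the controls, 300.5 CPM in mutant 51 and 390 CPM in mutant 54. Each mutant lay near a control and the groups overlapped, with a log2 fold change of 0.051 (95% interval -0.37 to 0.47, limma adjusted p = 0.841). This interval excludes a fall of the size seen for Casq2.

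In the reuptake group the pump and both of its small inhibitors had lower values in both mutants. Atp2a2 (ENSMUSG00000029467, chromosome 5, 122453513 to 122502225), which encodes the SERCA2 pump, was at 3742 and 3232 CPM in the controls, 1511 CPM in mutant 51 and 2509 CPM in mutant 54. Both mutants were below both controls, but the log2 fold change of -0.84 (SE 0.34) did not pass (limma adjusted p = 0.100). It was -1.20 without mutant 54 and -0.47 without mutant 51, and it passed with DESeq2 at -0.79 (DESeq2 adjusted p = 0.00344). With quantile normalization it was -0.072 (limma adjusted p = 0.859).

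Pln (ENSMUSG00000038583, chromosome 10, 53337667 to 53345987), the gene of phospholamban, stood at 2199 and 2467 CPM in the controls, 802 CPM in mutant 51 and 1519 CPM in mutant 54. The mutants were at 34.4% and 65.1% of the control mean, and Pln fell by 1.08 on the log2 scale (SE 0.33, limma adjusted p = 0.0443). This call is close to the threshold: it ended without mutant 51 (-0.62, limma adjusted p = 0.0627), with quantile normalization (-0.63, limma adjusted p = 0.131) and with the edgeR test on recovered reads (edgeR adjusted p = 0.0501 with TMM and 0.0523 with RLE factors). GENCODE places an antisense gene, Gm47644, over 1644 of the 2759 exon bases of Pln. It stood at 1667 and 1942 CPM in the controls, 654 CPM in mutant 51 and 1212 CPM in mutant 54, the same order as Pln. The strand setting of the counting is not given in the sources used here, so reads of Pln and of Gm47644 cannot be told apart. The other opposite-strand overlaps among the 10 genes were short, 141 bases of Pln with Cep85l, 83 bases of Atp2a2 with Gm43361, and 296 and 8 bases of Slc8a1 with AC122399.1 and Gm11096.

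Sln (ENSMUSG00000042045, chromosome 9, 53850164 to 53854560), which encodes sarcolipin, a pump inhibitor that in the mouse heart is mainly made in the atria, was at 133 and 157 CPM in the controls, 12.1 CPM in mutant 51 and 70.2 CPM in mutant 54. Mutant 51 held 111 reads of it, with an exact Poisson 95% interval from 9.94 to 14.5 CPM, so counting error alone is small beside its distance from mutant 54. The log2 fold change of Sln was -2.26 (SE 0.66, limma adjusted p = 0.0387), and 23 of all tested genes had a lower one. It was -1.03 without mutant 51 and -3.48 without mutant 54. The call ended with edgeR (edgeR adjusted p = 0.0632 with TMM) and with DESeq2 (DESeq2 adjusted p = 0.232). Of 10 markers of atrial muscle 3 fell, where 14.2% of all genes did, namely Myl7 by 1.51, Stard10 by 1.17 and Myl4 by 0.87 on the log2 scale. The 7 others, Nppa, Bmp10, Nr2f2, Tbx5, Kcnj3, Kcna5 and Dkk3, had log2 fold changes from -1.19 to 0.017 and were not called. The summed level of the atrial list was between 4734 and 4927 CPM in the controls and between 2667 and 3147 CPM in the mutants. Of 6 ventricular markers 5 fell (Myl2, Hey2, Kcnd2, Mpped2 and Gpx3) and Irx4 was not called, and the list summed to 5427 and 5446 CPM in controls, against 1940 and 3181 CPM in mutants 51 and 54. The part of these shifts in the fall of Sln was not tested.

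Slc8a1 (ENSMUSG00000054640, chromosome 17, 81373105 to 81738377), the gene of the sodium-calcium exchanger, had the highest value in mutant 54 relative to the controls, at 151% of their mean. It stood at 471 and 454 CPM in the controls, 427 CPM in mutant 51 and 698 CPM in mutant 54. The mutants lay on opposite sides of the controls, and the log2 fold change was 0.24 (95% interval -0.31 to 0.79, limma adjusted p = 0.455). Without mutant 51 it was 0.59, and without mutant 54 it was -0.11. The direction of Slc8a1 therefore rests on which mutant is read.

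Dhrs7c (ENSMUSG00000033044, chromosome 11, 67798187 to 67816002), which encodes a short-chain dehydrogenase of the sarcoplasmic reticulum membrane of striated muscle, had the largest fall of the 10 genes. It was at 67.9 and 63.2 CPM in the controls, 2.94 CPM in mutant 51 and 20.4 CPM in mutant 54. These values rest on 591 and 457 reads in the controls, and on 27 and 172 reads in the mutants. Counting error leaves mutant 51 between 1.94 and 4.27 CPM (exact Poisson 95% interval), well below every other library. The log2 fold change of Dhrs7c was -2.86 (SE 0.66, limma adjusted p = 0.0183), and 9 of the 14869 genes tested had a lower one. It was -1.63 without mutant 51 and -4.08 without mutant 54. The call of Dhrs7c ended with DESeq2 (DESeq2 adjusted p = 0.109). Skeletal muscle also expresses Dhrs7c and Sln. Of 12 skeletal muscle markers 5 were tested and 1, Tnnt3, rose, where 17.8% of all genes tested did. Myh8, Tnni2 and Neb were lower in both mutants than in both controls, at -1.48, -0.76 and -0.51 on the log2 scale, but were not called. Mylpf was at 0.023. The 5 tested markers summed to 36.2 and 29.3 CPM in the controls and 18.0 and 35.9 CPM in the mutants, and their part in these falls was not tested. The rest of the list, Myod1, Myog, Myf5, Myf6, Pax7, Myh3 and Actn3, were not among the 14936 genes read here, so they could not be analysed.

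A single library weighed on the size of these falls more than on their direction. Without mutant 51 the log2 fold changes were -1.09 for Casq2, -0.92 for Hrc and -0.48 for Trdn, and without mutant 54 they were -1.90, -2.72 and -1.22. A fit without a mutant takes its error from the spread between the controls alone and leaves out the wider spread between the mutants. Leaving out control 47 or control 50 ended all 6 calls. In either case 0 of the 10 genes passed with limma, 2 had an unadjusted p under 0.05, and 0.249% and 0.511% of all genes tested were called lower. Without mutant 51, 5 of the 10 were lower and Slc8a1 higher, where 11.3% and 15.6% of all genes were. On the recovered reads edgeR with TMM factors called 4 of the 10 lower, where 13.3% of all genes were, and DESeq2 called 4, where 10.5% were. Casq2 and Trdn were the 2 genes that limma, edgeR and DESeq2 all called.

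Levels of different genes can be compared only per length, here as CPM per kb of summed exon. The summed exon counts every annotated exon base of a gene and can be longer than the transcript made in the heart. Levels of genes with many annotated forms may thus be understated, and the order holds for this length alone. In the controls the order on this length-adjusted level was Pln at 846, Atp2a2 at 573, Casq2 at 395, Sln at 110, Jph2 at 78.0, Hrc at 55.2, Trdn at 36.3, Dhrs7c at 34.9, Ryr2 at 25.1 and Slc8a1 at 24.6. Neighbours in this order differed beyond the range of the 2 libraries, apart from Trdn and Dhrs7c and from Ryr2 and Slc8a1, whose ranges overlapped. In the mutants the length-adjusted level was 421 for Pln, 331 for Atp2a2, 145 for Casq2 and 81.1 for Jph2, and Jph2 took the place above Sln (31.2). In the mutants the ranges of Pln and Atp2a2 overlapped, and so did all neighbouring ranges from Sln downward, through Slc8a1 (29.9), Trdn (20.8), Ryr2 (19.0), Hrc and Dhrs7c (6.22). Pump and inhibitor stayed at the top in both groups, and Dhrs7c went to the bottom. The level of Pln may include reads of the antisense gene Gm47644.

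**Figure D2:**
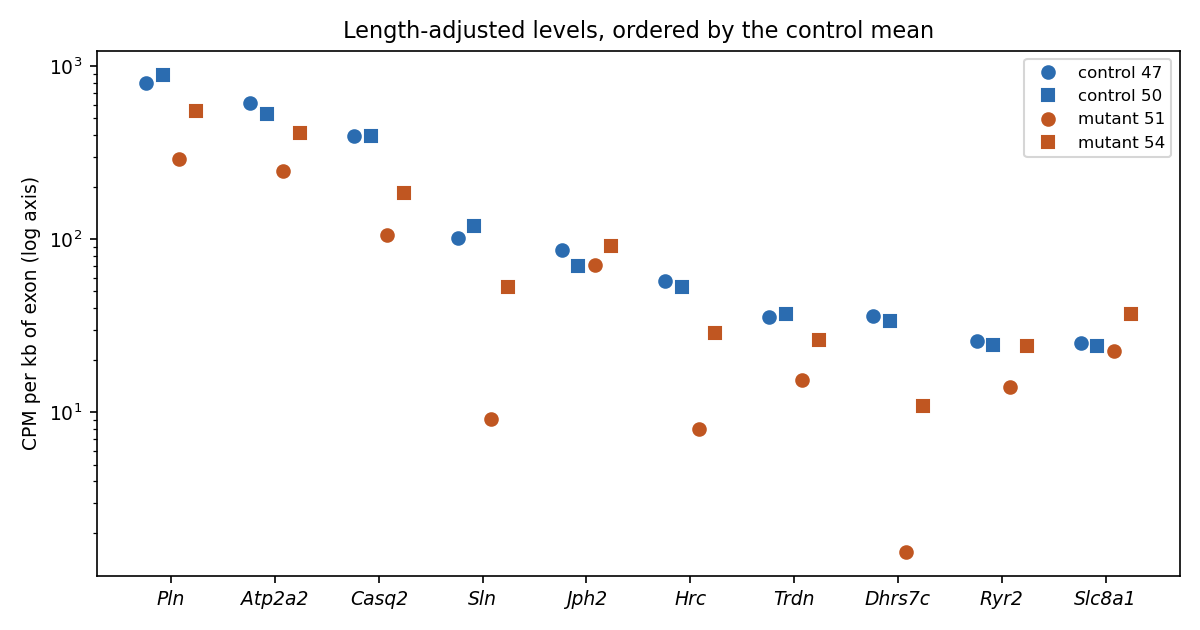
Length-adjusted level (CPM per kb of exon, log axis) of each gene in each library, ordered by the control mean; circles and squares mark the embryos within a group. Control means run from 846 for Pln to 24.6 for Slc8a1, and the mutants spread most for Dhrs7c, Sln and Hrc.

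Ratios of CPM within a heart can be compared between libraries, and scaling between libraries drops out of them. They were not adjusted for length, so a percentage does not give the level of a transcript relative to another. Only its change between libraries is read here. A shift between libraries that follows exon length would not drop out, and its part in these ratios was not tested. With 2 libraries a group an exact permutation test with both sides counted cannot give a p below 0.33, and 8 ratios were computed. Pln and Sln to Atp2a2 were the first pair, and the 6 others were chosen after their values were seen. Phospholamban to pump, as Pln to Atp2a2, was at 58.8% and 76.3% in controls 47 and 50 and at 53.1% and 60.5% in mutants 51 and 54. The groups overlapped, with a difference of -0.24 on the log2 scale (exact permutation p = 0.667). Reads of Gm47644 may count in this ratio as well. Sarcolipin to pump went from 3.57% and 4.85% in controls 47 and 50 to 0.799% and 2.80% in mutants 51 and 54. Both mutants were below both controls, by 1.48 on the log2 scale on average (exact permutation p = 0.33, the smallest possible).

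Calsequestrin stood apart from its channel in both mutants alike. Casq2 to Ryr2 was at 146% and 154% in the controls and at 71.8% and 72.6% in mutants 51 and 54. The difference was -1.05 on the log2 scale, against a standard deviation of 0.053 between the controls and of 0.011 between the mutants (exact permutation p = 0.33, the smallest possible). Although mutant 51 held less of both transcripts than mutant 54, their ratio was nearly the same in the 2 mutants. Exchanger to pump behaved likewise in the other direction: Slc8a1 to Atp2a2 was at 12.6% and 14.1% in the controls and at 28.3% and 27.8% in the mutants. That difference was 1.08 on the log2 scale (exact permutation p = 0.33). Jph2 to Ryr2 was higher in both mutants, at 74.9% and 56.0% against 49.5% and 42.3%. Trdn to Ryr2 was lower in both, at 36.1% and 35.0% against 45.1% and 49.1%. Hrc to Ryr2 went from 19.9% and 19.4% to 5.12% and 10.7%, and Dhrs7c to Ryr2 from 9.17% and 8.99% to 0.732% and 2.94%. In these last 2 ratios the mutants were far apart from each other and still below both controls.

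**Figure D3:**
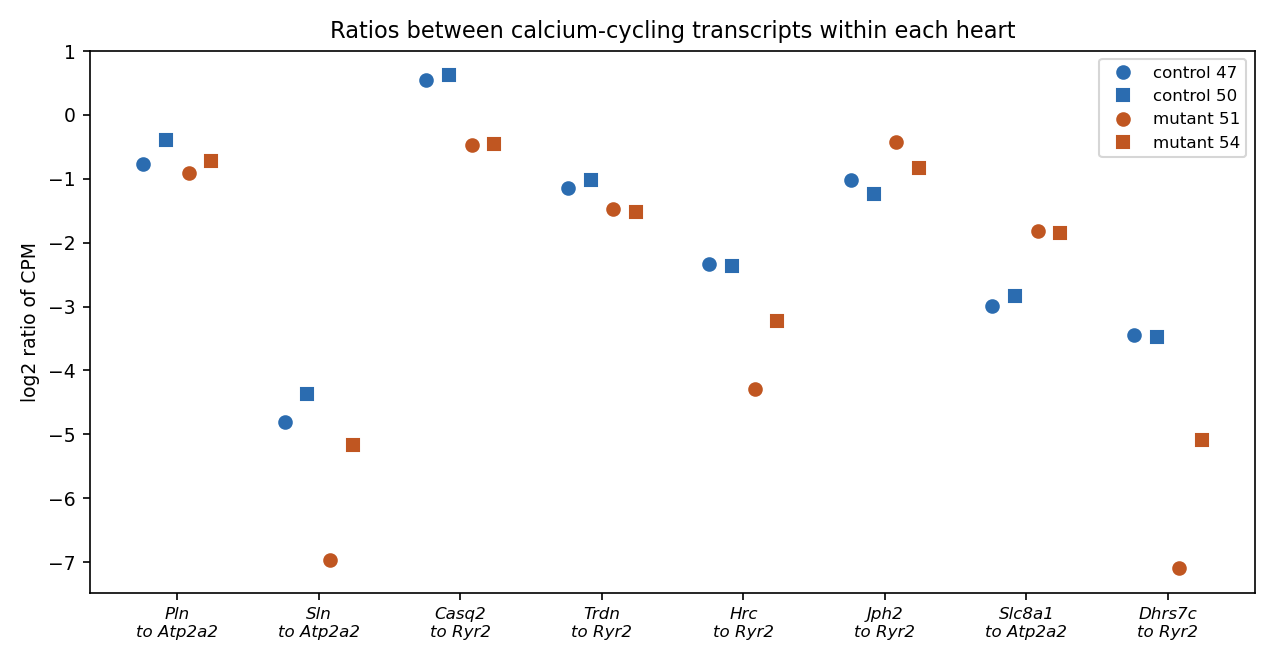
Log2 ratio of CPM between pairs of calcium-cycling genes in each library (blue: controls, orange: mutants; circles: 47 and 51, squares: 50 and 54). Casq2 to Ryr2 and Slc8a1 to Atp2a2 separate the groups with little spread inside them, while Pln to Atp2a2 overlaps.

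In whole hearts, fewer cardiomyocytes and less of a transcript in each cardiomyocyte cannot be told apart. The summed level of the 12 cardiomyocyte markers, none of which is among the 10 genes, was 46.4% of the control mean in mutant 51 and 71.8% in mutant 54. The 10 genes together were at 43.0% and 73.8%, close to the marker sum in each mutant. Atp2a2 and Pln, the genes with the highest CPM, weigh most on the sum of the 10. Myh7, Actc1, Tnnt2 and Myh6 weigh most on the marker sum, which itself differed between the controls, at 56242 and 42510 CPM. Single markers changed by unlike amounts, from -1.39 for Myl3 to -0.075 for Ldb3 on the log2 scale. Single genes ran from 4.48% and 31.1% for Dhrs7c to 92.4% and 151% for Slc8a1, so the likeness is not one of each gene. The 8 fibroblast markers were at 58.3% and 69.0%, and the 7 endothelial markers at 84.2% and 91.0%. The 6 smooth muscle and pericyte markers were lower still, at 38.0% and 52.3%, and the 6 macrophage markers were at 141% and 99.1%. The 2 lung and airway markers found were low throughout, with sums of 6.90 and 8.99 CPM in the controls and 0.979 and 0.475 CPM in the mutants. The part of these differences in the results was not tested. When each library was scaled to its cardiomyocyte marker sum, the median log2 fold change of all genes moved from -0.0058 to 0.72. Dhrs7c and Sln stayed lower, with log2 fold changes of -2.16 (SE 0.47, limma adjusted p = 0.000108) and -1.50 (SE 0.46, limma adjusted p = 0.0107), where 0.424% of all genes were called lower. Relative to the markers Atp2a2 was at -0.057 (95% interval -0.86 to 0.74), Trdn at -0.075 (-0.95 to 0.80) and Pln at -0.30 (-1.12 to 0.52). Casq2 was at -0.72 (-1.57 to 0.13) and Hrc at -1.06 (-1.97 to -0.15, limma adjusted p = 0.0783). The values of Ryr2, Jph2 and Slc8a1 were then above 0, at 0.33, 0.83 and 1.02, and none of these passed. As a share of the marker sum, Atp2a2 was at 6.65% and 7.60% in the controls and 6.60% and 7.08% in the mutants. Dhrs7c was at 0.121% and 0.149% in the controls and at 0.0128% and 0.0576% in the mutants.

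**Figure D4:**
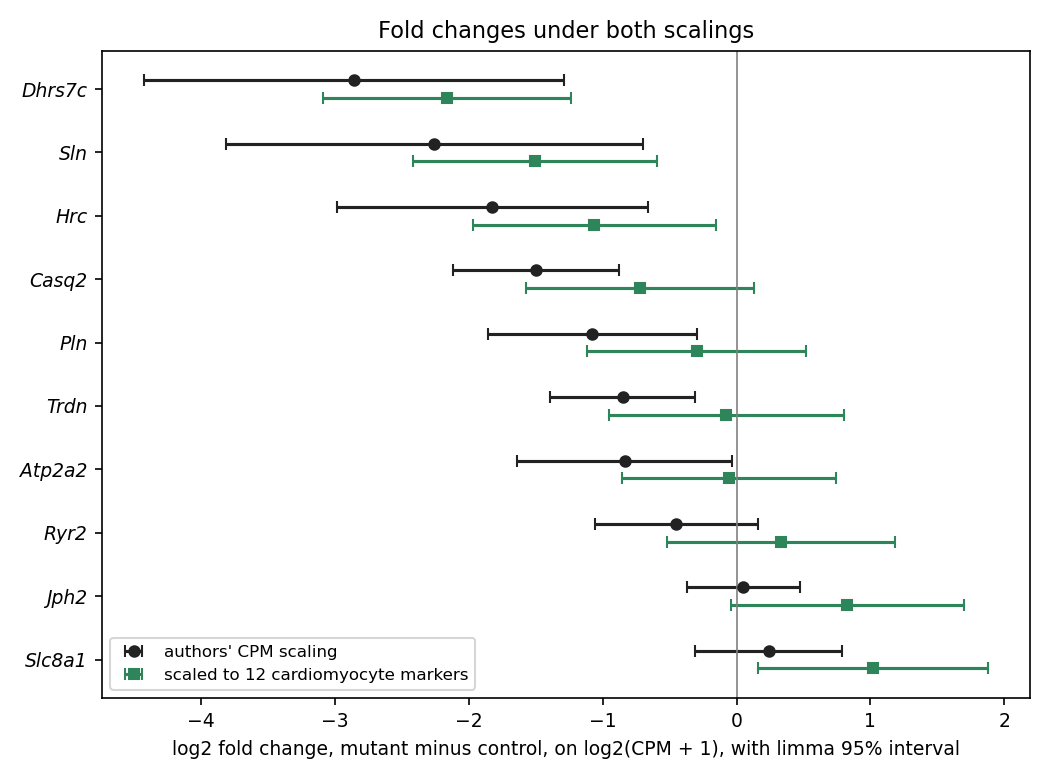
Log2 fold change, mutant minus control, with the limma 95% interval, for each calcium-cycling gene under the authors' CPM scaling (black circles) and after scaling each library to 12 cardiomyocyte markers (green squares). Against the markers Dhrs7c and Sln remain at -2.16 and -1.50, and Atp2a2 and Trdn lie at -0.057 and -0.075.

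The size of the fall followed the summed exon length among these genes. Dhrs7c, Sln, Hrc, Casq2 and Pln have between 1318 and 2759 exon bases, Jph2, Atp2a2 and Trdn between 4255 and 9352, and Slc8a1 and Ryr2 18807 and 28790. All 5 genes under 3 kb fell, where 21.9% of protein-coding genes of that length were called lower. Of the 2 genes over 12 kb neither was called, where 6.35% of protein-coding genes of that length were called lower. Across the 10 genes Spearman's rho between exon length and log2 fold change was 0.88, as a description of genes measured in the same 4 libraries. Over 12999 protein-coding genes it was 0.17, over 90 other calcium-handling genes 0.25 and over the 12 cardiomyocyte markers -0.063. The median log2 fold change of protein-coding genes was -0.17 under 3 kb and 0.22 at 12 kb or more. The part of length in these falls was not tested.

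**Figure D5:**
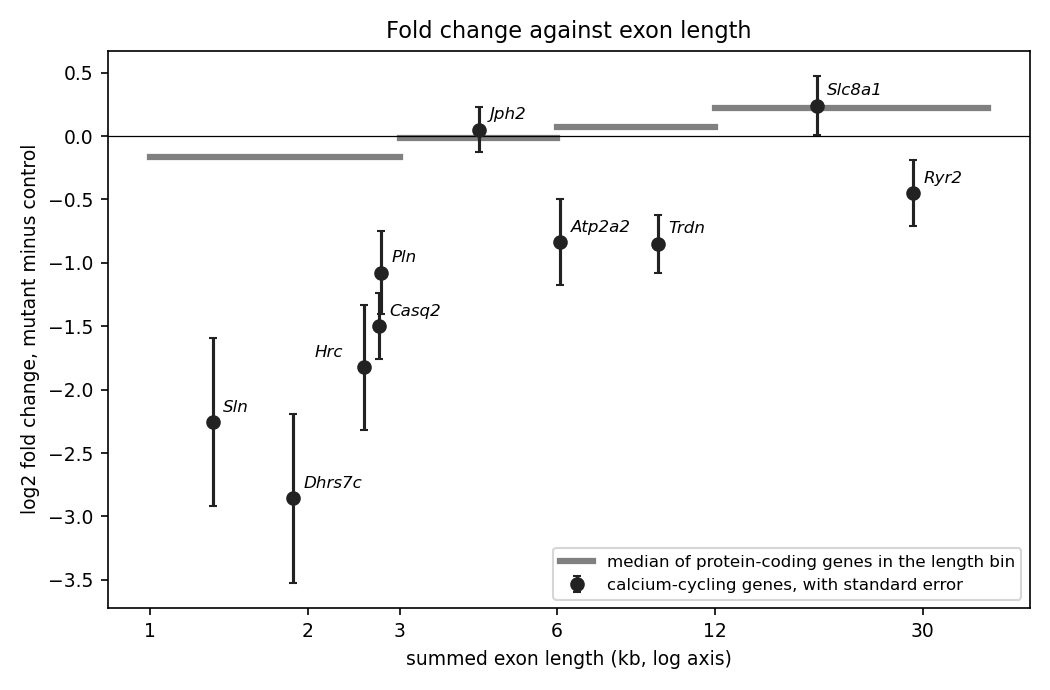
Log2 fold change, mutant minus control (vertical, with standard error), against summed exon length in kb (log axis) for the 10 genes, with grey bars at the median of protein-coding genes in each length bin. The 5 genes under 3 kb lie between -1.08 and -2.86, and Slc8a1 and Ryr2, over 12 kb, at 0.24 and -0.45.

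Promoter sequences from RefSeq (GRCm38.p6, 250 bases before to 50 after the annotated start) were at hand for 6 of the 10 genes: Casq2, Hrc, Pln, Ryr2, Slc8a1 and Jph2. Casq2, Hrc and Pln are shown because they fell together, and Slc8a1 because it did not fall. Capitals mark the letters found on either strand for the GATA core GATAA, the TATA box TATAAA and the MEF2 motif, MEF2 and GATA factors being regulators of heart muscle genes.
Casq2, chr3:102086165-102086464, plus strand: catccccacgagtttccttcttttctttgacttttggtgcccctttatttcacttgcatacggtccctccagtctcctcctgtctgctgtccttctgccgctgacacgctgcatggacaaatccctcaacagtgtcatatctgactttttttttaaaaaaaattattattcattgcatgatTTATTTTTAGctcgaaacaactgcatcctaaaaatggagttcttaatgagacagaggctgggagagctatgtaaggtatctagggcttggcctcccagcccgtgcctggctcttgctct
Hrc, chr7:45335019-45335318, plus strand: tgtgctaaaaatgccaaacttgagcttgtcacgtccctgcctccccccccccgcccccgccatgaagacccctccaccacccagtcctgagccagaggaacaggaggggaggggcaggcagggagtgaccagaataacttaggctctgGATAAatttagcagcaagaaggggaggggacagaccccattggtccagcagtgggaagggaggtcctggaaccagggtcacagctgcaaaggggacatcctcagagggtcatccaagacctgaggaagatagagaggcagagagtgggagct
Pln, chr10:53337436-53337735, plus strand: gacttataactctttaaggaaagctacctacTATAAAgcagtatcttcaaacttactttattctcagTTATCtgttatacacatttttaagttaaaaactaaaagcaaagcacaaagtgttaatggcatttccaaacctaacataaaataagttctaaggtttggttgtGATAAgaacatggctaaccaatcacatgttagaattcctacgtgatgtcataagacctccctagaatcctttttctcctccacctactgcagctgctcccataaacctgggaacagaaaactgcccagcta
Slc8a1, chr17:81738338-81738637, minus strand: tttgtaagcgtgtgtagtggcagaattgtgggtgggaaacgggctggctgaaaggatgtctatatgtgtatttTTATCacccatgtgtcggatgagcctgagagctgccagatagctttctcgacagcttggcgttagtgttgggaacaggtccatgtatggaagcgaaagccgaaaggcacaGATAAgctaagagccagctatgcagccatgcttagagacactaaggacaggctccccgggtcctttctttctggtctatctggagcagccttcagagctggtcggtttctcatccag

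Casq2 held the MEF2 motif, which 3.19% of 32851 RefSeq promoter windows of this length hold. GATAA was found once in Hrc and at 2 places each in Pln and Slc8a1, and 25.4% of all windows hold it. TATAAA was found in Pln alone of the 6 genes, and 13.6% of all windows hold it. It lay at bases 32 to 37 of the window, far upstream of the annotated start, so it is not shown to act as a TATA box. Ryr2 and Jph2 held none of these letters in the window. The motifs TNAAGTG, bound by Nkx2-5, and CArG, bound by serum response factor, were found in none of the 6 genes, and 11.5% and 1.63% of all windows hold them. Hrc and Pln thus held GATAA as Slc8a1 did, Casq2 did not, and no searched motif was common to Casq2, Hrc and Pln. The windows of Casq2 and Pln held 44.7% and 36.0% G and C bases, and those of Ryr2 and Jph2 between 63.0% and 65.3%, against a median of 52.7% over all windows.

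Beyond the 10 genes, 90 other calcium-handling genes were tested, of which 21 fell and 6 rose. Their median log2 fold change was -0.20. Set beside the 14.2% of all genes that fell and the 17.8% that rose, the rises were fewer, and so were the calls of several of the lists that follow. Of the genes of the release unit and the junction 7 of 16 fell. S100a1, a calcium sensor that acts on the release channel and the pump, fell by 1.38 (SE 0.19, limma adjusted p = 0.00279). Tmem38a, a potassium channel of the reticulum that balances charge during release, fell by 0.97, Cmya5, an anchor of the junction, by 0.91 and Bin1, which shapes the surface membrane folds, by 0.67. Of 7 genes around the pump 3 fell and 1 rose. Those that fell were Ppp1r1a, an inhibitor of the phosphatase that acts on phospholamban, by 1.06, Srl, the store protein sarcalumenin, by 0.71, and Tmem109, a reticulum membrane protein, by 0.59. Hax1, which binds phospholamban and also acts in mitochondria, rose by 1.48 (SE 0.14, limma adjusted p = 0.000651), from 29.8 and 29.5 CPM to 94.8 and 75.4 CPM.

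Of 9 other calcium-binding proteins of the reticulum and secretory pathway 3 fell, namely Calu by 0.65, Rcn2 by 0.57 and Rcn3 by 0.49. Among 19 genes of surface calcium entry 2 rose and 1 fell, no larger a share than among all genes in either direction. Gem, a small GTPase that inhibits the L-type channel, stood at 8.16 and 10.6 CPM in the controls and 82.2 and 45.1 CPM in the mutants, and rose by 2.58 (SE 0.28, limma adjusted p = 0.00107). Trpc1, a cation channel subunit, rose by 1.28, and Stim1, the sensor of store filling, fell by 0.79. The 7 export genes did not pass, with log2 fold changes from -0.59 for Fxyd1 to 0.67 for Slc8a2. With limma 2 of them, Atp2c1 and Fxyd1, were lower at an unadjusted p under 0.05. Of all genes tested, 14.2% fell even at an adjusted p under 0.05, so the share at an unadjusted p is no smaller. Of 4 genes of the IP3 receptor list Itpr2, the main IP3 receptor of heart muscle, rose by 0.82. Calm3, a calmodulin gene, was the only 1 of 7 calmodulin and CaMKII genes called, and it fell by 0.93. Of 13 genes of the protein kinase A pathway 4 fell and 1 rose. Prkaca, the catalytic subunit that phosphorylates phospholamban, fell by 0.82, the regulatory subunits Prkar2b and Prkar2a by 1.23 and 0.44, and Pde4b, a cyclic AMP phosphodiesterase, rose by 0.56. Of 8 genes of mitochondrial calcium uptake Micu2 and Smdt1 both fell by 0.62 and Micu3 rose by 0.82, all 3 being partners of the uniporter.

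The authors' deposited table gives 4 of the 10 genes an FDR under 0.05, Casq2 (0.0118), Dhrs7c (0.0269), Trdn (0.0430) and Hrc (0.0480). Of all genes in the authors' deposited table, 30.9% have such an FDR, counting both directions. Pln (0.0590), Sln (0.0683) and Atp2a2 (0.0936) lie above that threshold in the authors' deposited table, and Ryr2, Slc8a1 and Jph2 between 0.293 and 0.838.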

How the data were processed

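Total RNA of embryonic hearts was sequenced as paired ends of 150 bp from directional poly(A)-selected libraries, per the labels' protocols. Tools and build in the submitters' processing notes are STAR, fastp 0.20.0, DESeq, edgeR 3.10 and GRCm38. For the counting step, no tool, strand setting or annotation is given in the sources used here. Per the file headers the 4 value columns hold CPM, a signal the authors derived from reads, with column sums from 935156 to 1034350. The authors' log2 fold change and mean log2 CPM, F score, p-value and FDR were deposited beside them. The deposited logFC was not used, since it was 0.500 times (median) the log2 ratio of the group means over 2406 genes.

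All values (100%) were whole multiples of 1 step per column within 0.001, which gave whole reads. Replicates were distinct libraries, the chi-square over its degrees of freedom being 8.36 between controls and 24.6 between mutants. Log2(CPM + 1) of 14869 genes with at least 1 CPM in 2 libraries was tested with limma-trend under R 4.3.3 and limma 3.58.1, and p-values were adjusted by Benjamini-Hochberg at a threshold of 0.05. Since the deposited values are normalized, count tests on the recovered reads were alternatives, with edgeR 4.0.16 (4688 genes called with TMM) and DESeq2 1.42.0 (3674). The tests were tried on simulated data with the same spread in both groups. That run does not check them under the unequal spread of these libraries. Names, positions and exon lengths are from GENCODE M21 (14921 of 14936 identifiers matched). The 10 genes and all lists were chosen with earlier results of these data known. The genes named were the 10, Adar, Nkx2-5, the tested atrial and ventricular markers and, from each other calcium list, up to 4 called genes with the smallest p and any called against most calls of the list. The ratios, export genes, overlapping genes, other cardiomyocyte markers and skeletal muscle markers were named after their values were seen, apart from Pln and Sln to Atp2a2. Errors are standard errors from limma, and intervals on reads cover counting error only. The labels make each library its own embryo, 2 per group.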

Additional observations from a re-analysis of the deposited data

How the results depend on the processing

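Among the 10 genes, 6 fell, and the count was between 4 and 6 with other pseudocounts, filters, library scalings and count tests. It was 2 (Dhrs7c and Sln) with scaling to cardiomyocyte markers, and between 0 and 8 with each library left out. The 571 to 5655 genes called in all with a library left out stood against 4750. Upper-quartile scaling changed the split of rises and falls over all genes from 2643 and 2107 to 2253 and 2963, quantile normalization to 2188 and 2738, and scaling to the markers to 3289 and 63. Other calcium genes that fell numbered 21, and 0 with scaling to the markers (limma, with 0 at an unadjusted p under 0.05) and 0 to 32 with a library left out. Those that rose numbered 6, then 17 with scaling to the markers and 1 to 11 with a library left out. Jph2 changed sign with upper-quartile scaling (-0.042) and without a library (range -0.14 to 0.24), Slc8a1 without a library (-0.11 to 0.59) and Ryr2 with scaling to the markers (0.33). That scaling also turned Bin1 to 0.070, Srl to 0.073, Tmem109 to 0.18, Calu to 0.13, Rcn2 to 0.19, Rcn3 to 0.29, Prkar2a to 0.33, Micu2 to 0.15 and Smdt1 to 0.15. By construction it applies 1 factor per library to all genes, and it moved their median from -0.0058 to 0.72. For the other changes the cause was not tested. With a library left out, the error of the fit came from the spread of 1 group alone, so those counts do not measure robustness. The difference in Pln to Atp2a2 lay between -0.43 and -0.05 with a library left out, and that in Sln to Atp2a2 between -2.38 and -0.57. No paired analysis was possible because the embryo numbers are not shared between the groups. With 2 embryos a group, a miss of the threshold does not show that a gene was unchanged.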
